A study of Mus musculus with 40 samples.

Results

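The expression of 10 genes that define disease-associated microglia (DAM) was followed across repeated mild brain injury. They are Trem2, Tyrobp, Clec7a, Itgax, Axl, Lpl, Cd9, Cst7, Spp1 and Gpnmb, and they were picked by gene name from the 55539 features of the gene count table. All 10 were listed, and 7 of them were among the 15224 features with enough reads to be tested. Clec7a, Cst7 and Itgax were not, because they had fewer than 10 reads in 19, 33 and 34 of the 39 samples used. Values for these 3 genes rest on few reads.

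Female 3xTg-AD mice aged 2 to 4 months gave somatomotor cortex of the left side, and its RNA was sequenced 0.5, 4 or 24 h after the last of 1 to 5 closed head injuries (CHI) given once a day. All mice, Sham included, carried the human transgenes of the 3xTg-AD model on a C57BL/6J background and were anaesthetised with isoflurane, and Sham mice were anaesthetised without the weight drop. Sham comprised 4 samples, 1xCHI 10, 2xCHI 3, 3xCHI 9, 4xCHI 3 and 5xCHI 10. The 1xCHI, 3xCHI and 5xCHI groups covered all 3 times, whereas 2xCHI and 4xCHI were taken at 24 h and also stood as the pre-injury samples for 3xCHI and 5xCHI. The study removed a sample whose protein data stood apart, and its sample sizes place that sample in 3xCHI at 4 h, but its text gives no number. Sample 30 of that group was taken to be it and left out, and the values of sample 30 are given where they bear on a result. Shams matched to the different numbers of anaesthesia sessions were combined by the study into 1 group, so anaesthesia and injury number cannot be fully told apart. Total counts ran from 15926014 to 27859547 per sample. By the study's account each sample was a separate mouse. In bulk tissue, more cells of a type and more RNA per cell cannot be told apart.

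Microglia are the resident macrophages of the brain. In the DAM state, described around amyloid plaques and dying neurons, the surface receptor TREM2 signals through its adaptor TYROBP, homeostatic genes such as P2ry12 and Tmem119 are turned down, and genes of phagocytosis, lipid handling and lysosomes are turned up. Clec7a, Itgax, Cst7, Lpl, Spp1 and Gpnmb belong to the genes induced late and through TREM2, while Tyrobp is induced early.

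PU.1 and AP-1 are known regulators of microglial genes, and promoter sequence is shown for the 4 members with a match to their motifs ahead of the start. A RefSeq window from 250 bases before to 50 after the start (build GRCm38.p6) was available for 8 members, and Tyrobp and Lpl had none. The stretches shown end at or near the start, on the plus strand, with matches to GGAAGT (the core of PU.1 and other ETS sites, searched alone and within GAGGAAGT) and to TGANTCA (AP-1) in capitals; ACTTCC is GGAAGT on the other strand.
Trem2, chr17:48346271-48346401: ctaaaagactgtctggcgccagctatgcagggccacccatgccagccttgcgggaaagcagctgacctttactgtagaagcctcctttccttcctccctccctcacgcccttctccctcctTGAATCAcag
Cst7, chr2:150570285-150570415: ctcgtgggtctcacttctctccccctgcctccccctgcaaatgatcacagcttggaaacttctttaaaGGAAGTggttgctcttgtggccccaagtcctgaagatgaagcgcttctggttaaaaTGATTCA
Itgax, chr7:128129420-128129550: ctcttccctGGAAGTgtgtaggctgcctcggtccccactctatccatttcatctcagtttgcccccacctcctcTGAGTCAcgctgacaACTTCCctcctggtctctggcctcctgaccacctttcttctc
Spp1, chr5:104434981-104435111: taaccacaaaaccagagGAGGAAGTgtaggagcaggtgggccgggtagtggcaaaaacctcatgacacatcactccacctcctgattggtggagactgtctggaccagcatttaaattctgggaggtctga
Searched on both strands of the whole windows, GGAAGT was in those of Cst7, Itgax and Spp1 and in 23.8% of all 32851 windows. GAGGAAGT, which contains it, was in that of Spp1 and in 3.20% of all windows. TGANTCA was in those of Trem2, Cst7, Itgax and Gpnmb and in 7.81% of all windows. CACGTG, the E-box read by MITF and TFEB, was in none of the members' windows and in 7.15% of all. These are matches of letters and not measured binding.

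A pair of 5xCHI samples stood apart from all others and decided much of what a mean over 5xCHI shows. Sample 10 (4 h) and sample 11 (24 h) were both above each of the other 37 samples for 9 of the 10 members, in CPM (the reads of a gene scaled to a common library total). Over all features tested, which leave out Clec7a, Cst7 and Itgax, 7.95% were above in the same way. Samples 10 and 11 were singled out after these values were seen, so this is a description and not a test. Gpnmb, a lysosomal membrane glycoprotein, was at 20.8 and 68.0 CPM in these samples against at most 4.39 in the rest, and Spp1, which encodes the secreted protein osteopontin, at 86.9 and 146.1 CPM against at most 52.8. Cst7, the cathepsin inhibitor cystatin F, was at 4.55 and 5.51 CPM, from 99 and 115 reads, against at most 1.05. Lpl, lipoprotein lipase, was the exception, at 40.2 and 37.8 CPM against 38.5 in sample 26 of 1xCHI. In the same samples Gfap, the astrocyte intermediate filament, was at 1671 and 2490 CPM against 104 to 560 elsewhere, and Cd68, a phagocyte lysosomal protein, was at 30.2 and 46.6 CPM against at most 12.0.

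Summed levels of 18 core microglia and macrophage markers were 1168 and 1543 CPM in samples 10 and 11 and 433.9 to 472.2 in Sham. Relative to the Sham mean, the 2 samples together held 1.90 times the homeostatic microglia markers, 1.58 times the astrocyte markers, 1.46 times the oligodendrocyte markers and 0.722 times the neuron markers. P2ry12 was at 51.3 and 39.1 CPM in them and at 36.7 to 43.4 in Sham, and Tmem119 at 30.3 and 35.1 against at most 29.2 in any other sample. Monocyte markers were at 1.07 times and border macrophage markers at 0.861 times the Sham mean, with Ly6c2 at 0.138 and 0.289 CPM against 0.106 to 0.449 in Sham and Ccr2 at 0.184 and 0.192 against 0.333 to 0.420. The monocyte sum, 49.4 to 88.9 CPM in Sham, thus came mostly from other genes of its list, so it is no measure of monocytes alone. Of its 6 genes 2 were tested, and Vcan is also on the list for oligodendrocyte precursors. Ms4a7, a gene of border macrophages, was at 0.506 and 0.767 CPM against at most 0.611 in Sham and 0.757 in any other sample. Of the neutrophil list Ly6g was at 0 in every sample and none of the 6 genes was tested. The part of these shifts in the members' levels was not tested. Both belong to a run of 5xCHI samples numbered 07 to 12, and no label names that run as a batch. Values are therefore given with and without samples 10 and 11, and for 07 to 12 apart from 31 to 34.

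**Figure D1:**
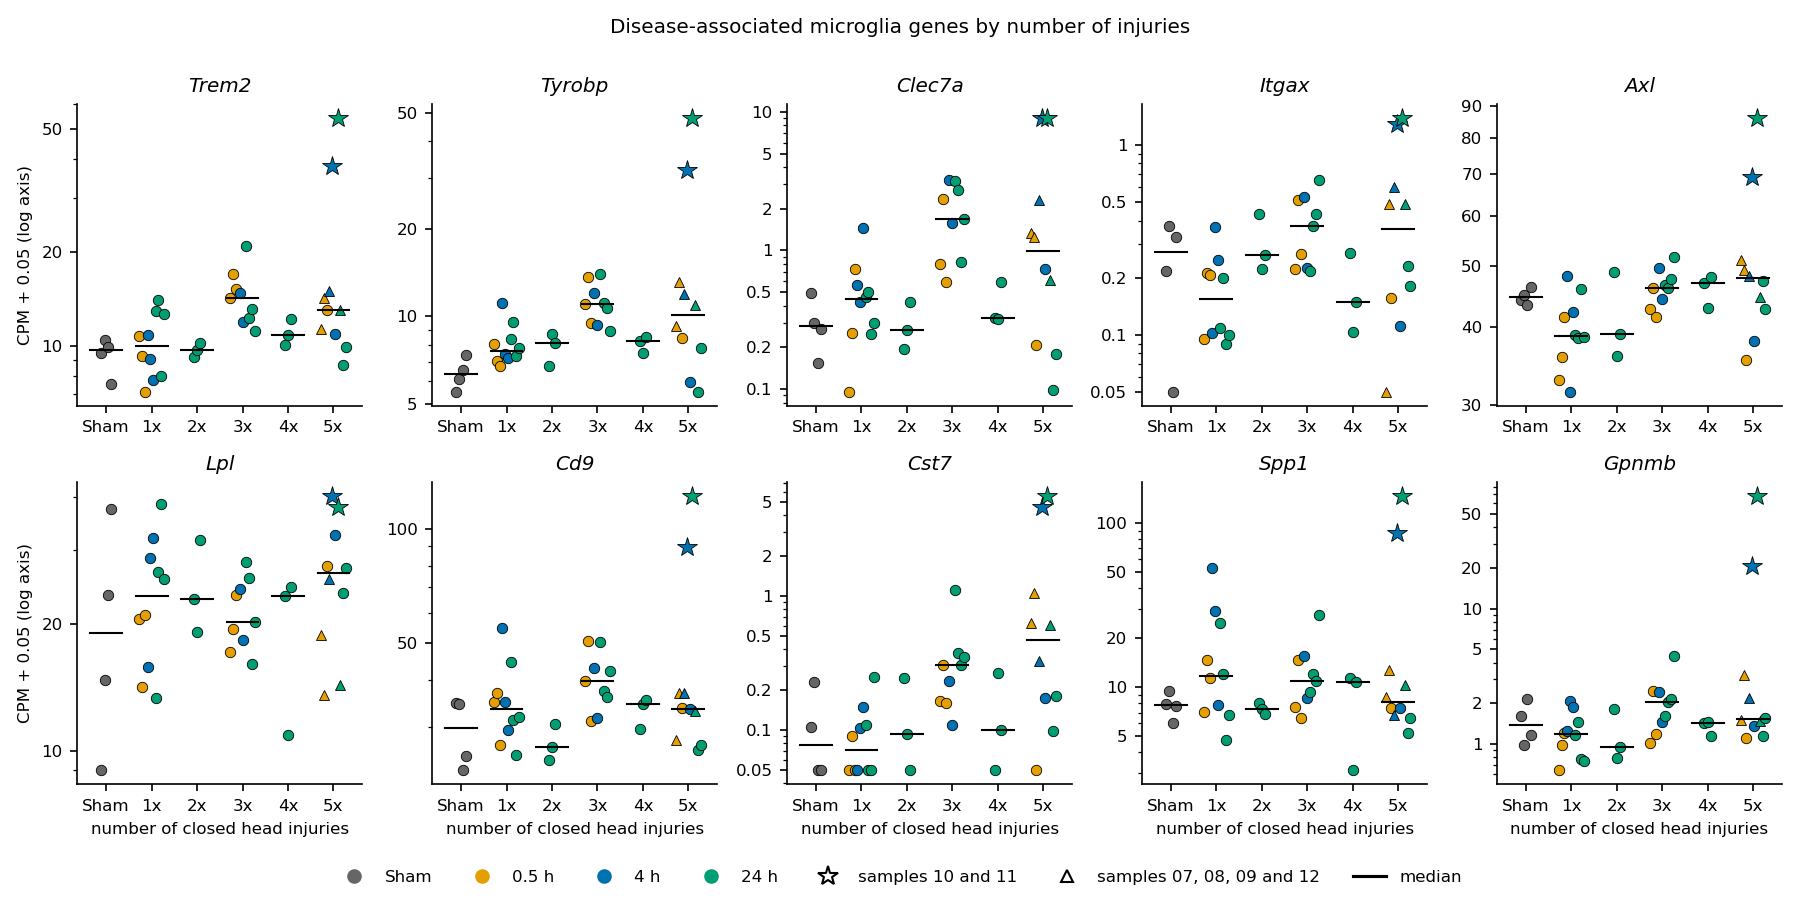
CPM + 0.05 (log axis) of the 10 disease-associated microglia genes in each of 39 samples by number of injuries. Colours give the time after injury, stars samples 10 and 11, triangles the 5xCHI samples 07, 08, 09 and 12, and lines the medians of the groups; Trem2, Tyrobp and Clec7a in 3xCHI lie above every Sham sample, and both stars are above all other samples in every panel but that of Lpl.

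Trem2 and Tyrobp, the receptor and its adaptor, were higher in each of the 9 3xCHI samples used than in any Sham sample, but not in sample 30, described after Clec7a. Trem2 (chr17:48346401-48354147 in GRCm38, plus strand) was at 9.44, 10.4, 9.83 and 7.50 CPM in Sham samples 06, 20, 35 and 39. In 3xCHI it was at 14.2, 17.0 and 15.2 CPM at 0.5 h, at 14.8 and 11.9 at 4 h, and at 21.0, 12.3, 13.1 and 11.1 at 24 h. The 2 groups did not overlap, with means of 9.29 ± 1.26 (SD, n = 4) and 14.5 ± 3.05 (SD, n = 9). In 2xCHI it was at 9.13, 9.63 and 10.1 CPM, within the Sham range, and in 4xCHI at 10.0, 10.8 and 12.2. The 1xCHI samples ran from 7.05 to 14.0 CPM with a median of 9.97 and spanned the Sham range. In 5xCHI, samples 10 and 11 were at 38.0 and 54.3 CPM, samples 07, 08, 09 and 12 at 11.2, 14.3, 14.9 and 13.0, and samples 31 to 34 at 13.0, 10.9, 8.61 and 9.90. All 6 samples numbered 07 to 12 were above the highest Sham sample, while the 4 others overlapped it.

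Tyrobp (chr7:30413760-30417585, plus strand) followed the same order. It was at 5.47, 6.03, 6.52 and 7.33 CPM in Sham. In 3xCHI it was at 11.0, 13.7 and 9.43 CPM at 0.5 h, 12.0 and 9.33 at 4 h, and 13.9, 11.1, 10.6 and 8.86 at 24 h, with no overlap with Sham. The 3 samples of 4xCHI, at 8.19, 7.46 and 8.43 CPM, also lay above Sham, and those of 2xCHI, at 6.73, 8.64 and 8.05, overlapped it. The 1xCHI samples had a median of 7.55 CPM in a range of 6.73 to 11.1. In 5xCHI it was at 9.26, 13.1, 11.9 and 10.9 CPM in samples 07, 08, 09 and 12, at 31.7 and 48.1 in samples 10 and 11, and at 8.35, 5.89, 5.45 and 7.77 in samples 31 to 34. Again the samples numbered 07 to 12 were all above Sham, while 2 of the 4 others, samples 31 and 34, were.

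Clec7a, the beta-glucan receptor dectin-1 (chr6:129461591-129472779, minus strand; the annotation lists it as a polymorphic pseudogene and the other 9 members as protein coding) had the largest ratio of 3xCHI to Sham mean among the members. It was at 0.447, 0.251, 0.105 and 0.222 CPM in Sham, from 21 reads in all. In 3xCHI it was at 0.742, 2.32 and 0.539 CPM at 0.5 h, 3.15 and 1.52 at 4 h, and 3.10, 2.69, 0.769 and 1.63 at 24 h, from 313 reads. No 3xCHI sample overlapped Sham, and the mean was 7.13 times that of Sham. The 4xCHI samples were at 0.277, 0.268 and 0.545 CPM and those of 2xCHI at 0.144, 0.216 and 0.373, both overlapping Sham. In 5xCHI samples 10 and 11 were at 8.92 and 9.02 CPM, samples 07, 08, 09 and 12 at 1.28, 1.19, 2.25 and 0.560, and samples 31 to 34 at 0.159, 0.682, 0.0478 and 0.130. The last 4 overlapped Sham and the other 6 did not.

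Sample 30, the 3xCHI sample left out, was at 9.29 CPM of Trem2, 6.00 of Tyrobp and 0.191 of Clec7a, all within the Sham range. With it, 3xCHI and Sham therefore overlapped for these 3 genes.

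No member passed an adjusted p of 0.05 in edgeR's quasi-likelihood test of any number of injuries against Sham, and neither did any other feature. The share of all features called was 0% in these comparisons, in the comparisons at single times and in the trend at 24 h. At single times of 1xCHI that share hung on 1 sample, since 3601 features were called at 0.5 h without sample 27 and 578 at 4 h without sample 36, with no member among them. For 3xCHI the log2 fold change was 0.80 ± 0.36 (SE) for Tyrobp, with a p of 0.0326 that became 0.911 after Benjamini-Hochberg adjustment over all features, and 0.63 ± 0.32 for Trem2, with a p of 0.0596. At an unadjusted p under 0.05, 1 of 7 members was higher in 3xCHI by edgeR, 2 of 6 by DESeq2, which gave Gpnmb no p in any comparison, and 3 of 7 by limma, against 2.26% of all features by edgeR. In either direction 588 features passed that p by edgeR, 634 by DESeq2 and 1240 by limma, of which DESeq2 and limma called none after adjustment. Members whose 3xCHI samples were all above Sham numbered 2 of 7, Trem2 and Tyrobp, against 0.23% of all features, and Clec7a would add to them had it been tested.

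Without samples 10 and 11, whose spread all groups share in this fit, the errors were smaller. The 3xCHI difference of Tyrobp in edgeR was then 0.79 ± 0.17 on the log2 scale (adjusted p = 0.230, unadjusted 3.79e-05), that of Trem2 0.62 ± 0.16 (adjusted p = 0.410, unadjusted 0.000438) and that of Cd9, a tetraspanin of the cell membrane, 0.44 ± 0.15 (adjusted p = 0.769, unadjusted 0.00553). These were the 3 of 7 members with an unadjusted p under 0.05, against 3.38% of all features. When all 6 samples 07 to 12 were left out, Tyrobp rose in 3xCHI by 0.79 ± 0.14 with an adjusted p of 0.0137 in edgeR, and Trem2, at 0.62 ± 0.16, had an adjusted p of 0.263. Tyrobp was 1 of 8 features of 15224 called in that fit.

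Each member was also compared between each injury number and Sham by a two-sided exact permutation test on mean log2 CPM, which draws no spread from other groups. Of 50 such tests, whose p-values are not adjusted, 8 gave a p under 0.05, and all 8 were higher after injury. Among the 7 members that passed the filter, 1 was higher at that p in 1xCHI, 3 in 3xCHI and 2 in 5xCHI, against 6.04%, 4.44% and 6.06% of all features put through the same test. In 3xCHI the differences of Trem2 (0.62), Tyrobp (0.79) and Clec7a (2.49) each had an exact p of 0.0028, the smallest that 9 samples against 4 can give. Cst7 differed by 1.64 in 3xCHI with an exact p of 0.0168 and Cd9 by 0.45 with an exact p of 0.0252. With sample 30 included, and scaling by library size, the exact p was 0.00799 for Trem2 and Tyrobp, 0.00999 for Clec7a and 0.0120 for Cst7, and that of Cd9 became 0.0520. That left 2 of 7 members higher, against 4.31% of all features. Groups of 3 against 4 cannot reach a p below 0.0571, so 2xCHI and 4xCHI could not pass. Tyrobp was higher by 0.34 in 1xCHI, with an exact p of 0.0120.

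All 5 samples numbered 01 to 05 were 3xCHI while 3 of 4 Sham samples were numbered 19 or higher. Among samples 19 to 40 alone, the 3xCHI differences were 0.47 for Trem2, 0.57 for Tyrobp and 2.38 for Clec7a, each with an exact p of 0.0571, the smallest that 4 against 3 samples allow. In this subset 2 of 7 tested members, Trem2 and Tyrobp, still did not overlap between the groups, against 3.08% of all features. With the number range (01 to 18 or 19 to 40) as a term in edgeR the difference of Tyrobp was 0.59 ± 0.33 and that of Trem2 0.45 ± 0.29.

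**Figure D2:**
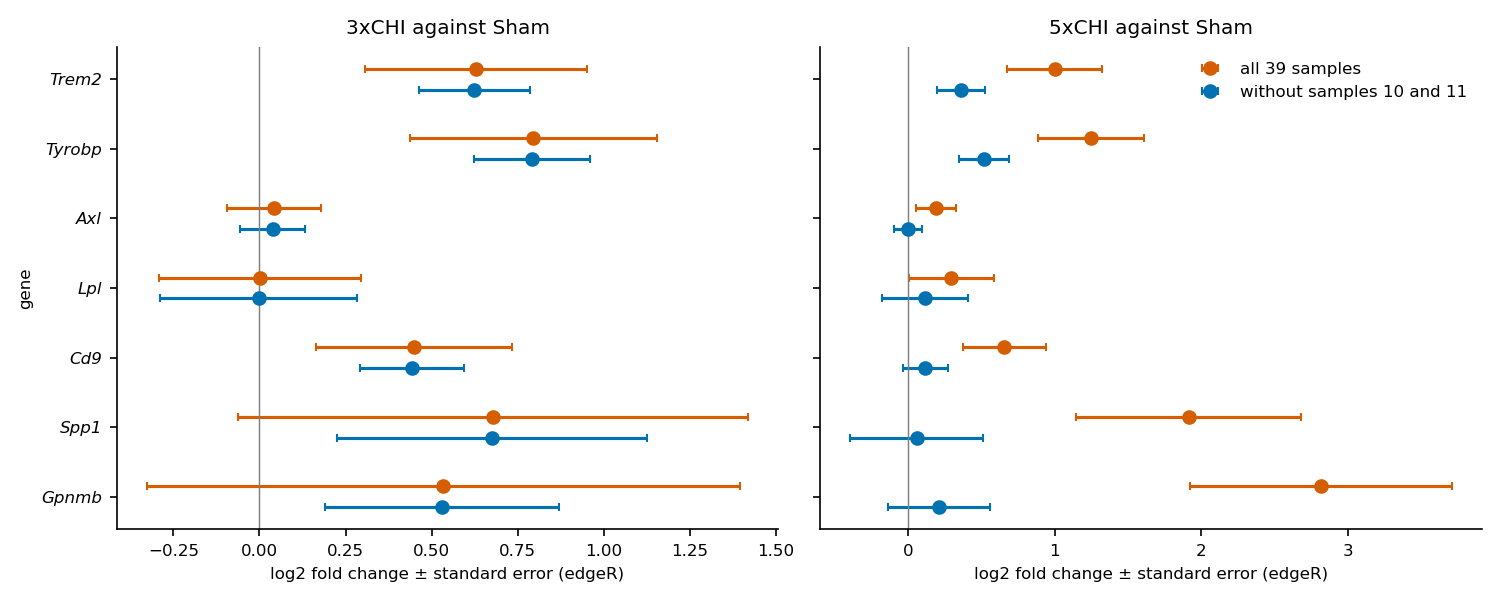
Log2 fold change ± standard error (edgeR) of the 7 tested members for 3xCHI (left) and 5xCHI (right) against Sham, from the fit of all 39 samples and from the fit without samples 10 and 11. In 3xCHI the estimates stay in place and their errors shrink, Tyrobp going from 0.80 ± 0.36 to 0.79 ± 0.17, whereas in 5xCHI that of Gpnmb moves from 2.82 ± 0.89 to 0.21 ± 0.35.

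The 5xCHI comparison rested on samples 10 and 11. In edgeR the log2 fold changes were 2.82 ± 0.89 for Gpnmb (adjusted p = 0.360), 1.91 ± 0.77 for Spp1, 1.25 ± 0.36 for Tyrobp (adjusted p = 0.360), 1.00 ± 0.32 for Trem2 (adjusted p = 0.367) and 0.66 ± 0.28 for Cd9. These 5 of 7 members had an unadjusted p under 0.05, against 7.51% of all features, while DESeq2 gave 4 and limma 3. In either direction 1763 features passed that p by edgeR, 1859 by DESeq2 and 2285 by limma. Without samples 10 and 11 it was 2 of 7, against 3.51%. Those were Tyrobp at 0.51 ± 0.17 and Trem2 at 0.36 ± 0.16, while Gpnmb was at 0.21 ± 0.35, Cd9 at 0.12 and Spp1 at 0.06 ± 0.45. No member had all 10 samples of 5xCHI above Sham, against 0.177% of all features. Trem2 and Tyrobp did so in samples 07 to 12, against 4.58% of features, and no tested member did in samples 31 to 34, against 0.966%. The exact permutation test gave a p of 0.0220 for Trem2 and 0.0380 for Tyrobp in 5xCHI, and 0.0444 and 0.0768 without samples 10 and 11, where 4.42% of all features were higher at a p under 0.05.

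The 3xCHI groups of Itgax and Axl, which encode other surface proteins, overlapped Sham. Itgax encodes the integrin alpha X chain, or CD11c (chr7:128129547-128150657, plus strand), and was at 0.168, 0.323, 0 and 0.278 CPM in Sham. It ran from 0.166 to 0.606 CPM in 3xCHI with a median of 0.323 and 4 of 9 samples above the highest Sham sample. It was at 0.0401 to 0.321 CPM in 1xCHI, and at 1.23 and 1.34 in samples 10 and 11 against 0 to 0.549 in the rest of 5xCHI. Axl, a receptor tyrosine kinase that binds GAS6 (chr7:25757273-25788705, minus strand), was at 44.0, 45.0, 43.3 and 46.2 CPM in Sham and had a median of 46.1 in 3xCHI, range 41.3 to 51.6. In 1xCHI its median was 38.6 CPM, range 31.4 to 48.2, and 8 of the 10 samples were below the lowest Sham sample. No tested member, Axl included, was lower in 1xCHI at an unadjusted p under 0.05 in edgeR, with times pooled or apart. In samples 10 and 11 Axl was at 69.3 and 86.2 CPM.

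Lpl and Cd9 are both expressed by brain cells other than microglia. Lpl (chr8:68880491-68907448, plus strand) was at 8.94, 14.6, 23.3 and 37.5 CPM in Sham, so that Sham alone covered most of the range of the other groups. Its medians were 23.3 in 1xCHI, 20.2 in 3xCHI and 26.4 in 5xCHI. Cd9 (chr6:125460266-125494791, minus strand) was at 34.6, 34.5, 23.0 and 25.1 CPM in Sham. In 3xCHI it had a median of 39.7 CPM, range 30.9 to 50.4, with 7 of 9 samples above the highest Sham sample. In 5xCHI samples 10 and 11 were at 89.5 and 122 CPM and the other 5xCHI samples at 26.0 to 36.8.

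Cst7 (chr2:150570415-150578944, plus strand) was near the limit of detection. It was at 0.0559, 0.180, 0 and 0 CPM in Sham, from 6 reads in all, and at 0.0583 to 1.05 in 3xCHI, median 0.256, from 52 reads. Sample 02 held the highest of these. In 5xCHI samples 07, 08, 09 and 12 were at 0.582, 1.01, 0.275 and 0.560 CPM, and samples 31 to 34 at 0, 0.124, 0.0478 and 0.130. The former 4 were above Sham and the latter 4 overlapped it. When genes of low count were kept in, edgeR gave a log2 fold change of 2.80 ± 0.91 for Clec7a in 3xCHI (adjusted p = 0.876), which became 2.80 ± 0.69 without samples 10 and 11 (adjusted p = 0.492).

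Spp1 and Gpnmb each had single samples far above the rest of their group. Spp1 (chr5:104435118-104441050, plus strand) was at 7.82, 9.48, 5.99 and 7.66 CPM in Sham. At 4 h after 1xCHI it was at 52.8, 29.0 and 7.76 CPM, so that 2 of 3 samples were above Sham and the other was not. At 24 h after 1xCHI it was at 24.4, 12.0, 4.73 and 6.68 CPM and at 0.5 h at 6.98, 14.6 and 11.3. In 3xCHI it ran from 6.41 to 27.4 CPM with a median of 10.9, and outside samples 10 and 11 the 5xCHI samples were at 5.21 to 12.7. Sample 15, the highest at 4 h after 1xCHI, also had the meningeal fibroblast markers at 472.7 CPM in sum against 107.7 to 180.8 in Sham, while sample 16, also high in Spp1, had them within the Sham range. Sample 15 also had the border macrophage markers at 32.9 CPM against 9.58 to 17.8 in Sham and the monocyte markers at 112.8 against 49.4 to 88.9. Sample 38, the highest of 3xCHI, had these 3 lists at 259.1, 31.8 and 146.7 CPM. Ly6c2 and Ccr2 were at 0.259 and 1.09 CPM in sample 15, so its monocyte sum came mostly from other genes of that list. The part of the cells behind these lists in the Spp1 values was not tested.

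Gpnmb (chr6:49036546-49070929, plus strand) was at 1.56, 0.933, 2.10 and 1.11 CPM in Sham and at 0.589 to 2.03 in 1xCHI. In 3xCHI it ran from 0.971 to 4.39 CPM with a median of 1.99, sample 38 being the highest. In 5xCHI it was at 1.06 to 3.20 CPM outside samples 10 and 11. Apart from samples 10 and 11, each injury group overlapped Sham.

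Compared per kilobase of merged exon, the Sham mean was highest for Cd9 at 14.3 CPM per kb, followed by Tyrobp at 9.50, Axl at 8.86, Spp1 at 4.70, Lpl at 2.02 and Trem2 at 1.88. Gpnmb was at 0.219, Clec7a at 0.0972, Cst7 at 0.0597 and Itgax at 0.0400 CPM per kb. Some antisense or overlapping genes lie on Cd9 and Spp1, and each had a mean under 0.1 CPM.

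**Figure D3:**
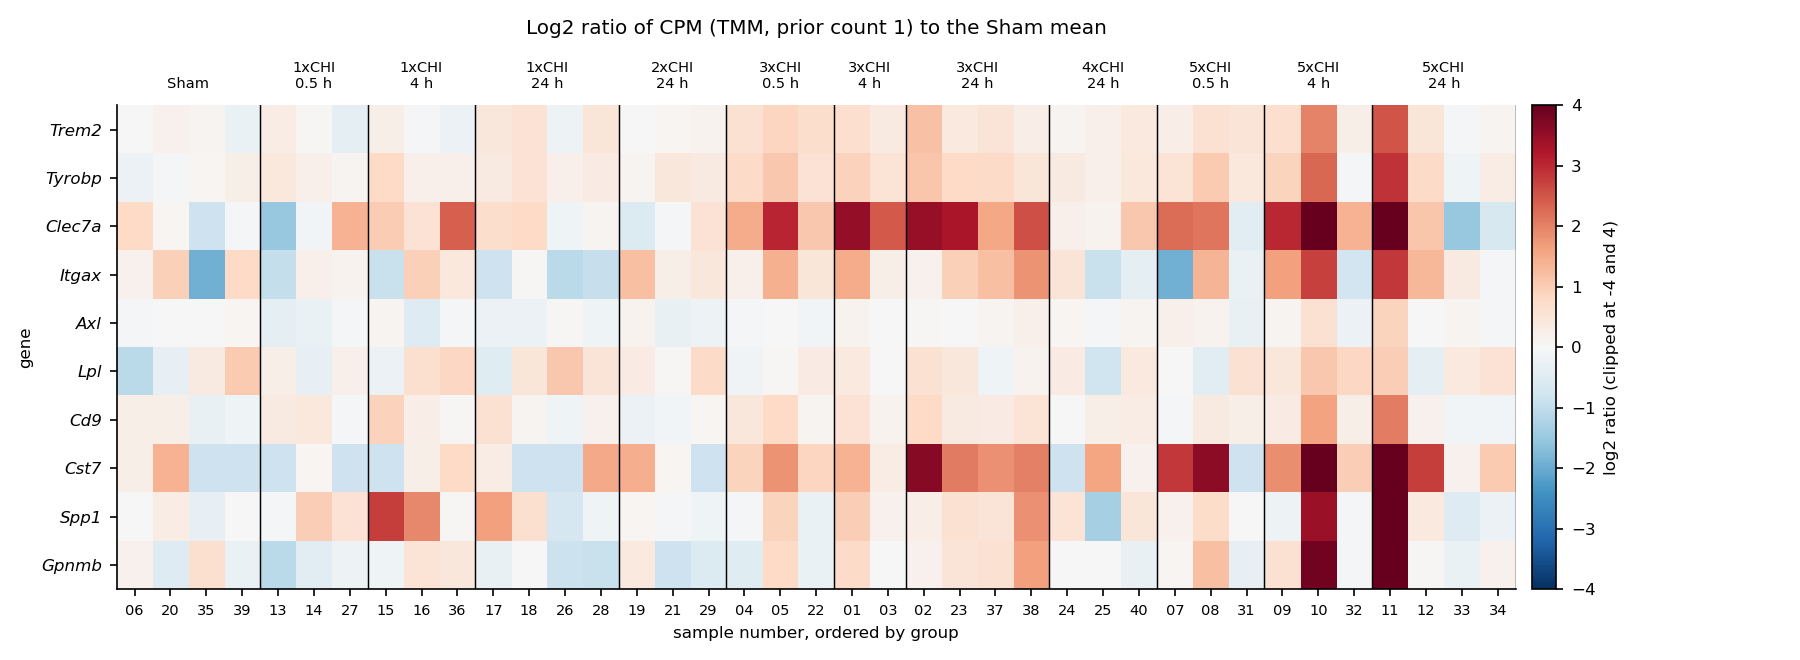
Log2 ratio of each sample's CPM to the Sham mean (TMM scaling, prior count 1) for the 10 genes, with samples ordered by group and colours clipped at −4 and 4. Samples 10 and 11 of 5xCHI form the strongest columns, and Trem2, Tyrobp, Clec7a, Cst7, Cd9 and Itgax are above the Sham mean in all 9 samples of 3xCHI.

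The single times were tested next. In 1xCHI against Sham, 0 of 7 members had an unadjusted p under 0.05 and a higher level at 0.5 h, 1 at 4 h and 0 at 24 h, against 13%, 6.96% and 3.55% of all features. The member at 4 h was Spp1, at 1.94 ± 0.85 on the log2 scale (edgeR, adjusted p = 0.437, unadjusted 0.0302). It was at 1.92 ± 0.50 without samples 10 and 11 (adjusted p = 0.165), when Cd9, at 0.42 ± 0.19, made it 2 of 7, with 2092 of 15224 features passing that p in either direction. DESeq2 also gave Spp1 alone, and limma gave no member, with 1658 and 1377 features. With all times of 1xCHI together it was 0 of 7 against 10.9%, and 2 of 7 without samples 10 and 11, Spp1 and Tyrobp, against 11.2%. For 2xCHI and 4xCHI it was 0 of 7, against 2.33% and 0.663%. No member had all samples above Sham in 1xCHI or 2xCHI, against 0.171% and 4.04% of features, and Tyrobp alone did in 4xCHI, against 3.09%.

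Against its pre-injury group, 2xCHI at 24 h, 3xCHI had 0 of 7 members higher at an unadjusted p under 0.05 at each time, where 1.16%, 1.04% and 2.44% of features were higher at 0.5, 4 and 24 h. Without samples 10 and 11, 3 of 7 were higher at 0.5 h, against 1.9%, and 4 of 7 at 24 h, against 3.89%, while it was 0 of 7 at 4 h, where 455 of 15224 features passed that p in either direction. Those at 24 h were Trem2 (0.57 ± 0.20), Tyrobp (0.50 ± 0.22), Cd9 (0.60 ± 0.19) and Gpnmb (1.15 ± 0.41), and those at 0.5 h were Trem2 (0.66 ± 0.21), Tyrobp (0.52 ± 0.23) and Cd9 (0.55 ± 0.21). None of these passed after adjustment.

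Against 4xCHI at 24 h, 5xCHI had 0 of 7 members higher at 0.5 h, 4 at 4 h and 4 at 24 h, against 3.52%, 3.53% and 4.26% of features. The 4 were Gpnmb, Spp1, Tyrobp and Trem2 at both times, with log2 fold changes at 24 h of 3.77 ± 1.05, 2.30 ± 0.91, 1.16 ± 0.46 and 0.95 ± 0.41 in edgeR. When samples 10 and 11 were left out, 1 of 3 samples at 4 h and 1 of 4 at 24 h, it was 0 of 7 at both, where 492 features at 4 h and 813 at 24 h passed that p in either direction. DESeq2 gave 3 members at each of these times, with 864 and 1048 features in either direction, and limma 1 and 0, with 818 and 998.

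Along the number of injuries at 24 h, 6 of 7 members had a positive slope with an unadjusted p under 0.05, against 4.54% of features. The slope of Gpnmb was 0.76 ± 0.16 log2 units per injury (edgeR, adjusted p = 0.568), that of Tyrobp 0.25 ± 0.07 and that of Trem2 0.19 ± 0.07. DESeq2 gave 3 of the 4 members with a p, Cd9, Axl and Tyrobp, and limma 1, Tyrobp, with 1053 and 672 features in either direction. Without samples 10 and 11, of which sample 11 is at 24 h, it was 0 of 7 against 1.63%, with slopes from −0.03 to 0.08.

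A test of any difference among the 6 numbers of injuries had 5 of 7 members at an unadjusted p under 0.05, against 10.5% of features, and called 0 members against 0.0131% of features. Gpnmb was nearest, with an adjusted p of 0.0587 in edgeR, followed by Tyrobp (0.210) and Trem2 (0.227). DESeq2 called 2 members in this test, Tyrobp with an adjusted p of 0.0373 and Trem2 with 0.0441, among 206 of 15220 features. By limma it was no member and 49 of 15224 features, with 3 members and 2541 features at an unadjusted p under 0.05. The edgeR adjusted p of Gpnmb was 0.424 without samples 10 and 11, where the lowest among the members was 0.168. The test between time points within 1xCHI, 3xCHI and 5xCHI called 0 members, against 0.0328% of features, and had none at an unadjusted p under 0.05, against 4.25%. Where edgeR had no member at an unadjusted p under 0.05, DESeq2 and limma had none either, but for Cd9 by limma in 3xCHI against 2xCHI at 24 h.

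Across samples the members differed in how far they varied with the 18 core microglia and macrophage markers, none of which is a member. Samples 10 and 11 are far from all others in this sum and were left out, leaving 37 samples. Tyrobp had a Pearson r of 0.76 and a Spearman rho of 0.71, Cst7 0.72 and 0.67, Trem2 0.68 and 0.62, Axl 0.68 and 0.69 and Clec7a 0.67 and 0.63. The permutation p of r, adjusted over the 10 members tested, was 2.5e-05 for Tyrobp and 4e-05 for Trem2. Gpnmb (r = 0.43, rho = 0.47, adjusted p = 0.0128) and Cd9 (r = 0.38, rho = 0.27, adjusted p = 0.0271, and 0.131 for rho) varied less with it, and so did Itgax (r = 0.29, rho = 0.37, adjusted p = 0.101, and 0.0348 for rho). Spp1 (r = 0.04, rho = 0.10) and Lpl (r = −0.02, rho = −0.04) had adjusted p of 0.919 and 0.924. In the 33 samples without 07 to 12, r was 0.71 for Tyrobp, 0.66 for Trem2, 0.64 for Axl, Clec7a and Cst7 and 0.34 for Gpnmb. With all 39 samples r was 0.93 for Tyrobp, 0.90 for Trem2, 0.88 for Gpnmb, 0.81 for Cd9, 0.66 for Spp1 and 0.31 for Lpl. There rho was 0.38 for Cd9 and 0.23 for Spp1.

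The marker sum itself was 433.9 to 472.2 CPM in Sham and 499.5 to 654.9 in 3xCHI, with no overlap, but 454.6 in sample 30. Trem2, Tyrobp, Cst7, Itgax and Clec7a together came to 3.25% to 3.80% of that sum in Sham, 4.34% to 5.98% in 3xCHI, 7.23% and 7.66% in samples 10 and 11, and 3.10% to 5.52% in the other 5xCHI samples. In 1xCHI it was 3.12% to 5.48%, in 2xCHI 3.47% to 4.17% and in 4xCHI 3.94% to 4.25%. Axl, Lpl, Cd9, Spp1 and Gpnmb were not summed. Sample 30 is not in the 3xCHI range. Beside its marker sum of 454.6 CPM it had 9.29 of Trem2, 6.00 of Tyrobp, 0.191 of Cst7, 0.0476 of Itgax and 0.191 of Clec7a. How far a change in microglial RNA accounts for the CPM of the summed members was not tested.

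**Figure D4:**
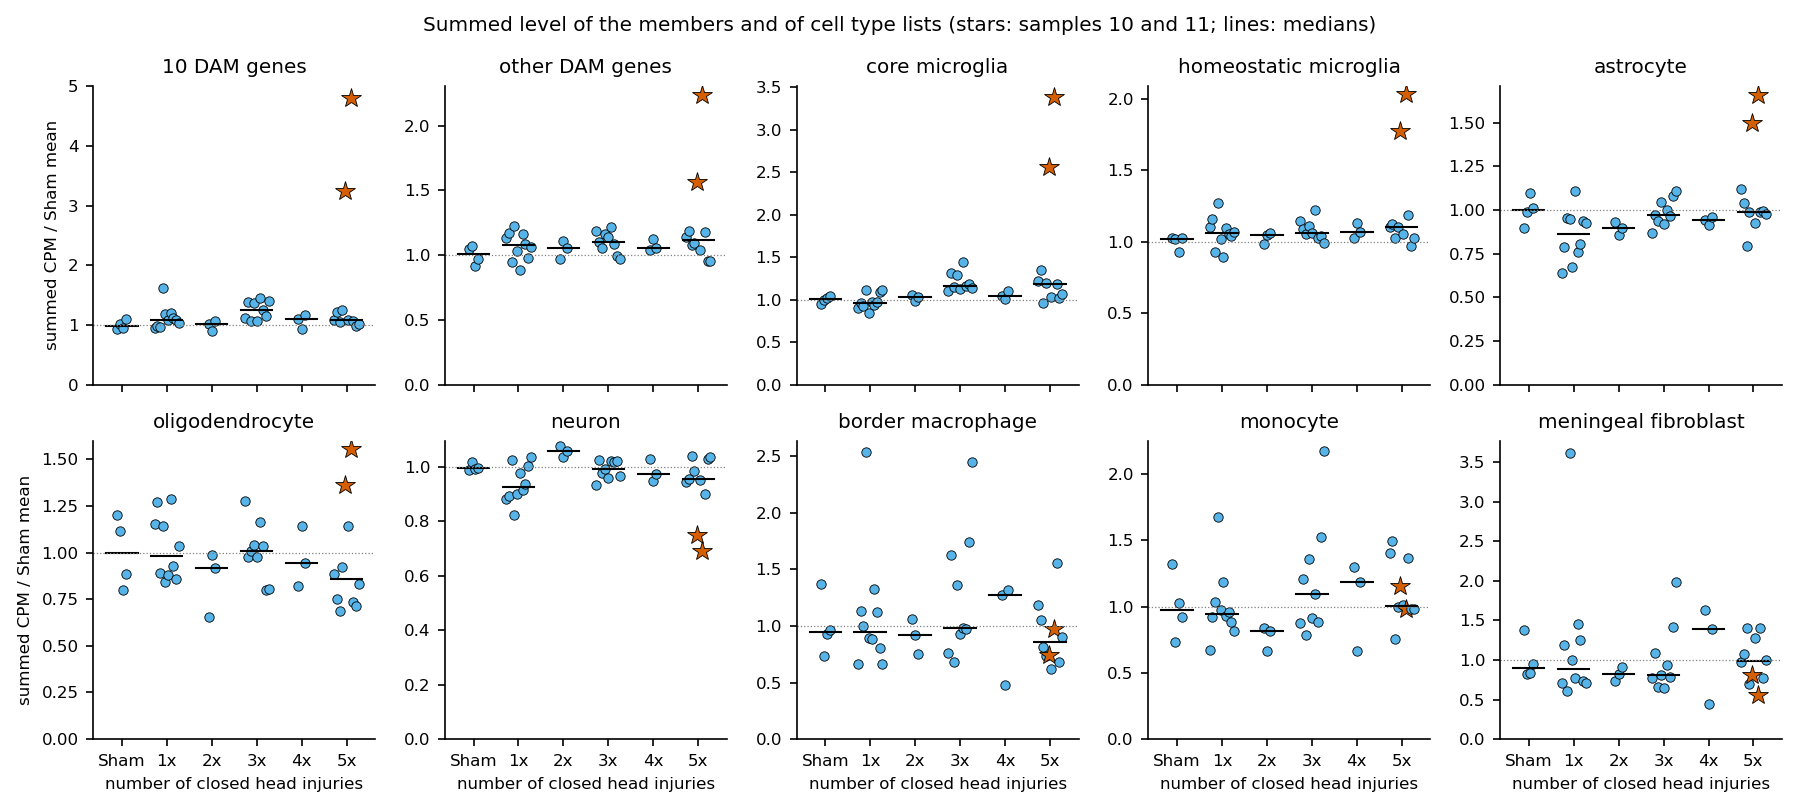
Summed CPM of gene lists in each sample relative to the Sham mean, by group, with samples 10 and 11 marked. Core microglia and macrophage markers are above the Sham range in all 3xCHI samples and highest in samples 10 and 11, where neuron markers are lowest relative to Sham.

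Other genes of the pathway gave the following counts. The 2 genes named per list had its lowest p for any difference among injury numbers in these same samples. Their separation between groups was therefore selected for and is a description. Over all features tested, 0.23% had every 3xCHI sample above Sham. Lists were set against the median of all features, which was −0.00 in 3xCHI and 0.01 in 5xCHI on the log2 scale, and no gene of any list was called in these comparisons. The shares of all features higher at an unadjusted p under 0.05 were 2.26% in 3xCHI and 7.51% in 5xCHI, and 3.38% and 3.51% without samples 10 and 11. Of 25 other DAM genes tested (30 listed), 2 were higher at an unadjusted p under 0.05 in 3xCHI, with a median of 0.18 over the list, and 12 in 5xCHI, with a median of 0.33. Without samples 10 and 11 these were 6 and 3, with 1 lower in 5xCHI. Ccl6, a chemokine, was at 0.444 to 0.631 CPM in Sham and 1.28 to 2.93 in 3xCHI, with no overlap. Cd52, a surface glycoprotein of leukocytes, was at 0.614 to 0.841 CPM in Sham and 0.874 to 2.69 in 3xCHI, also with no overlap. Sample 30, left out, was at 0.762 CPM of Ccl6, above Sham but below the rest of 3xCHI, and at 0.714 of Cd52, within the Sham range. Their adjusted p for any difference among injury numbers was 0.0929 and 0.178 in edgeR.

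Of the 18 homeostatic microglia genes, 0 were higher in 3xCHI at an unadjusted p under 0.05, median 0.09, and 9 in 5xCHI, median 0.26, which became 5 and 1 without samples 10 and 11. Csf1r, the receptor that microglia need to survive, was at 71.3 to 91.9 CPM in Sham, 73.9 to 92.7 in 3xCHI and 159.5 and 161.8 in samples 10 and 11. Sham and 3xCHI overlapped for it, and 1xCHI had a median of 63.5 CPM, range 48.9 to 87.2.

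Of 15 genes of TREM2-TYROBP signalling tested (16 listed), 1 was higher in 3xCHI, median 0.15, and 5 in 5xCHI, median 0.29, and 3 in each without samples 10 and 11. Inpp5d, which encodes the lipid phosphatase SHIP1, was at 12.8 to 14.3 CPM in Sham, 11.9 to 17.4 in 3xCHI and 25.9 to 26.8 in samples 10 and 11. In 1xCHI it was at 8.20 to 13.4 CPM, median 10.7. Vav1, a guanine nucleotide exchange factor, was at 2.84 to 3.61, 3.25 to 4.84 and 8.73 to 12.2 CPM. Of 18 ligands and partners of members tested (20 listed), 0 were higher in 3xCHI, median 0.07, and 6 in 5xCHI, median 0.26, which became 3 and 1 without samples 10 and 11. Itgb2, the integrin beta chain that pairs with Itgax, was at 3.55 to 4.09 CPM in Sham and 4.14 to 7.25 in 3xCHI, with no overlap, but at 3.19 in sample 30 and at a median of 3.15 in 1xCHI. Mitf, a transcription factor of the lysosomal gene family, was at 7.75 to 8.99 CPM in Sham and 6.48 to 9.09 in 3xCHI, which overlapped.

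Of the 18 core microglia and macrophage markers, 1 was higher in 3xCHI, median 0.40, and 14 in 5xCHI, median 0.70, and 11 and 7 without samples 10 and 11. Fcgr3, an IgG receptor, was at 8.04 to 10.7 CPM in Sham, 9.99 to 16.7 in 3xCHI and 32.6 to 37.6 in samples 10 and 11. Irf8, a transcription factor of microglia and monocytes, was at 4.92 to 5.41 CPM in Sham and 5.47 to 7.01 in 3xCHI, with no overlap, but at 4.71 in sample 30, and at 16.3 to 19.3 in samples 10 and 11. Choroid plexus markers ran from 7.73 to 24.5 CPM in sum in Sham, from 10.3 to 868 in 4xCHI and from 6.03 to 2471 in 5xCHI. They were at 17.7 and 31.5 CPM in samples 10 and 11 and at 413.8 in sample 12. Their part in the members' levels was not tested.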

How the data were processed

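RNA from 40 samples was sequenced by a company and counted per gene. The authors deposited estimated counts per gene, of which 4.46% of values were not whole, and these were rounded here. The genome was mm10 per the labels; the deposited column names end as the gene-level output of Salmon does, while its version, its settings and the use of strand were not given in the sources used here. Groups came from the labels. Sample 30 was left out, taken to be the outlier that the study removed, and 0 columns of sample values went unused. A feature was tested if at most 4 of the 39 samples were under 10 counts for it, which left 15224. Counts were scaled by TMM and tested with edgeR 4.0.16 (quasi-likelihood, all groups sharing 1 spread, Benjamini-Hochberg adjustment, adjusted p threshold 0.05) in R 4.3.3, with DESeq2 1.42.0 and limma 3.58.1 as alternatives. Log2 CPM used a prior count of 1. Exact permutation tests and correlations (100000 resamples) used scipy 1.17.1 in Python 3.11.15. The scripts were tested on simulated data. Positions and gene names came from GENCODE M21 (GRCm38), which held 55450 of the IDs, and promoters from RefSeq. All 46 pairs of replicates differed by more than sampling noise. Depth was 15926014 to 27859547 counts (median 19028778), and a gene at 0 may hold up to 3 counts in a library. The members and lists were chosen with earlier results of these data known. Named genes are the 10 members and, per list, the 2 genes with the lowest p for any difference between injury numbers, plus for each member the gene most like it. Cd68, P2ry12, Tmem119, Ly6c2, Ccr2, Ms4a7 and Ly6g fall outside this rule and were chosen with values known. A gene that this rule names is not reported here. Sample number ranges (01 to 18, 19 to 40, 07 to 12) are not named as batches by any source. Samples 10 and 11 were singled out after their values were seen, and alternatives without them were added then. Alternatives covered the tool, scaling, filter, prior count, number range as a term and each sample left out.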

Additional observations from a re-analysis of the deposited data

Results flagged for a closer look

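Of 70 groups of member values examined, 18 had a highest or lowest sample that passed Dixon's 95% limit. The limit is on the gap to the next sample relative to the whole range. Chance passes it in about 1 in 20 independent groups of normally distributed values, which CPM from few reads need not be. The groups also share samples, across genes and between all times and single times. The 18 are therefore a description and cannot be set against that rate. In 9 of the 18 groups the sample set apart was sample 11. Within 5xCHI at 24 h sample 11 was at 54.3 CPM of Trem2 (next 13.0), 48.1 of Tyrobp (10.9), 5.51 of Cst7 (0.560), 122 of Cd9 (33.0), 9.02 of Clec7a (0.560), 86.2 of Axl (47.3), 146.1 of Spp1 (10.2) and 68.0 of Gpnmb (1.52), and over all of 5xCHI it was at 68.0 of Gpnmb (20.8).

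In 3xCHI, sample 02 was at 1.05 CPM of Cst7 (next 0.323), over all times and within 24 h. Sample 38 was at 27.4 CPM of Spp1, next 15.4 over all times and 11.9 at 24 h, and at 4.39 CPM of Gpnmb (next 2.42). In 1xCHI, sample 15 was at 52.8 CPM of Spp1 (next 29.0), sample 36 at 1.39 CPM of Clec7a (0.684), sample 28 at 0.198 CPM of Cst7, and sample 26 at 24 h at 45.9 CPM of Axl (38.8).

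Sample 30, not among the 39 samples, was at 0.191 CPM of Cst7, above the highest Sham value of 0.180.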

How the results depend on the processing

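Of 882 counts of members called under 52 alternatives, 868 equalled the reported count. In 3xCHI against Sham 1 member (Tyrobp) was called without samples 07 to 12, among 8 of 15224 features, and at 4 h after 1xCHI 1 (Spp1, adjusted p = 0.0301 in edgeR) without samples 10 and 11 and with no filter on low counts, among 32 of 32574 features. For any difference among injury numbers, DESeq2 called 2 (Tyrobp, Trem2) among 206 of 15220 features, no filter 2 (Cst7, Gpnmb) among 8 of 32784, all 40 samples 1 (Gpnmb) among 6 of 15214 and omission of samples 07 to 12 1 (Tyrobp) among 23 of 15224. Leaving out each sample in turn called 0 to 1, with 0 to 38 of all features called, Gpnmb passing without sample 26, 07, 31, 09, 32, 12, 33 or 34, with adjusted p of 0.0202 to 0.0468 in edgeR. The exact permutation tests under 0.05, 8 of 50 beside 5.70% over all features, were 5 to 8 on leaving out a Sham sample (5 without 35 or 39, beside 3.13% and 3.73%) and 0 among samples 19 to 40, where groups were too small to pass. The 8 include Clec7a and Cst7 in 3xCHI, which are not among the features behind these shares. No called value reversed. The causes were not tested. DESeq2 gave no p for Gpnmb in any comparison. Keeping only the compared groups has no meaning for any difference. Depth limits Clec7a, Cst7 and Itgax most. No paired analysis was possible because sample numbers are unique to a sample.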

Other observations

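The gene most like each member, by the smaller of its Spearman rho over 39 samples and over the 33 without samples 07 to 12, is given as a description over samples that share groups and depth. For Tyrobp it was C1qc, a complement subunit made by microglia (0.90 and 0.85), for Clec7a the astrocyte gene Gfap (0.86 and 0.82) and for Axl Pygb, the brain form of glycogen phosphorylase (0.86 and 0.87). For Cd9 it was Ly86 (0.84 and 0.83), for Trem2 Tmem176a (0.79 and 0.77) and for Cst7 Itgb2 (0.78 and 0.69). Spp1 was most like Anxa1 (0.78 and 0.81), Gpnmb most like Irak4 (0.72 and 0.70) and Itgax most like Csf2rb (0.59 and 0.57). For Lpl it was Ppp1r1b, which encodes the striatal phosphoprotein DARPP-32, with 0.68 and 0.88.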
